A study of Homo sapiens with 12 samples.

Results

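Amino acids enter and leave human cells through carrier proteins of the solute carrier (SLC) families in the plasma membrane. The transcripts of 10 such carriers were followed here in cultured human breast cancer cells, the triple-negative and mesenchymal-looking line MDA-MB-231: SLC7A11, SLC7A5, SLC3A2, SLC7A1, SLC38A1, SLC38A2, SLC1A3, SLC1A4, SLC1A5 and SLC43A1. They were chosen by name, as plasma membrane amino acid carriers, and every probe annotated to them was taken. This gave 12 of the 47311 probes with values on the HumanHT-12 beadchip, with a pair of probes each for SLC3A2 and SLC38A1 and a single probe for each other gene.

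Per the labels, 9 arrays held RNA from cells transfected with a pool of small interfering RNAs (siRNAs) against ARF1, a small GTPase that recruits coat proteins to Golgi membranes, and 3 arrays held RNA from cells given a scramble siRNA. All cells received 100 nM siRNA with the lipid reagent Oligofectamine. By source name these 9 fall into 3 sets of 3 arrays, named ARF-1, ARF-2 and, skipping a number, ARF-4, with the numbering left unexplained; a hyphen marks a set and its absence a gene. The line is a single tumour-derived cell line, the labels give no time after transfection, and they do not say whether the 3 arrays of a group came from separate cultures, so the p-values measure only the spread between these arrays, which may be technical.

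Values are log2 signals after background correction and quantile normalization, and probes with a detection p-value under 0.05 on 3 or more of the 12 arrays were kept for testing. Of the 12 carrier probes 11 were kept, which covered 9 of the 10 genes, among 22195 kept probes of 12048 genes. SLC1A4 was the gene not kept. Each difference is in log2 units with its standard error (SE), and "adjusted p" is limma's, adjusted by Benjamini-Hochberg over the 22195 probes tested, with calls made under 0.05. Where a gene had several kept probes, the brightest stood for it in the counts of genes. A probe's signal depends on its own sequence, so levels are compared between arrays for the same probe and not between genes.

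Mean raw signal per array was 303 to 518, and 39.1% to 42.8% of probes were detected on an array. The ARF1 transcript itself was not measurably lower where ARF1 siRNA was labelled: its brightest probe differed from scramble by 0.14 ± 0.08 (SE; adjusted p = 0.321) on the 9 arrays, and by 0.08, 0.21 and 0.12 in ARF-1, in ARF-2 and in ARF-4 (adjusted p = 0.554, 0.0758 and 0.416). None of the ARF1 probes passed the threshold as lower, so the groups are called by their labels and no direction is credited to loss of ARF1. Of 15 markers of the line's identity, 8 were detected on all 12 arrays: VIM, CD44, EGFR and CAV1, but also ERBB2, EPCAM, KRT8 and KRT18. On no array were 5 detected, namely ESR1, PGR, CDH1, KRT5 and KRT14. Of 9 leukocyte markers 5 were detected on no array, PTPRC and CD3E among them, and CD14 and CD68 were detected on all. The mean level of those 9 was 5.51 to 5.58 on the scramble arrays, 5.64 to 5.74 in ARF-1, 5.70 to 5.71 in ARF-2 and 5.54 to 5.62 in ARF-4, and of the 4 kept members 1 rose and 1 fell in ARF-1 and likewise in ARF-2. CD14 rose in ARF-1 by 0.54 and in ARF-2 by 1.01 (adjusted p = 0.00858, which became 0.159 under median scaling, and 0.000164), or by 0.28 and 0.67 as the mean of its probes, of which the dimmer differed by 0.05 on the 9 arrays (adjusted p = 0.871). MS4A1 fell in ARF-1 by 0.51 and in ARF-2 by 0.50 (adjusted p = 0.0144 and 0.0161), and neither call held under median scaling (0.0811 and 0.0922) or without scramble replicate 2 (0.0628 and 0.0689), nor that of ARF-1 without ARF-1 replicate 2 or 3 (0.0524 and 0.0539). Without background correction these MS4A1 differences were -0.20 and -0.18. Its signal was near background, with a mean of 5.05 in scramble and 4.54 in both sets. Of 10 fibroblast and endothelial markers 5 were detected on no array, VWF, CDH5 and KDR among them. Their mean level was 4.84 to 4.91 in scramble, 4.89 to 4.93 in ARF-1, 4.87 to 4.97 in ARF-2 and 4.68 to 4.78 in ARF-4. The part of these shifts in the carrier values below was not tested.

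The carriers fall into a few functional types. SLC3A2 (4F2hc, CD98) is not a carrier by itself: it is the heavy chain that binds light chains such as SLC7A5 and SLC7A11 by a disulfide bond and brings them to the plasma membrane. SLC7A5 (LAT1) is an exchanger that takes in leucine and other large neutral amino acids, and SLC7A11 (xCT) takes in cystine, used for glutathione, in exchange for glutamate. SLC7A1 (CAT1) carries arginine and lysine. SLC1A5 (ASCT2) exchanges glutamine and other small neutral amino acids, SLC38A1 and SLC38A2 (SNAT1, SNAT2) take up glutamine and alanine together with sodium, SLC1A4 (ASCT1) exchanges alanine, serine and cysteine, SLC1A3 (EAAT1, GLAST) takes up glutamate and aspartate, and SLC43A1 (LAT3) passes leucine and related amino acids without coupling. Many of these genes are known to be induced when amino acids run short, through the kinase GCN2, phosphorylation of eIF2α and the transcription factor ATF4, which binds C/EBP-ATF response elements. MYC and NRF2 are other known regulators of genes in the group.

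The DNA around the start sites of the carriers is shown as a description. Its part in the expression values below was not tested. RefSeq promoter windows on build GRCh38.p14, running from 250 bases before a start to 50 after it, were found for 9 of the 10 genes, 18 windows in all. On that build SLC3A2 spans chr11:62856109-62888860, SLC7A5 chr16:87830023-87869507, SLC1A5 chr19:46774883-46788594, SLC1A3 chr5:36596588-36688334 and SLC38A1 chr12:46183063-46269043. The first listed windows of the heavy chain SLC3A2 and its light chain SLC7A5 are given for the 250 bases before the start, 5′ to 3′ on the gene's strand. Capitals mark a match to TGACNNNGC, the core of the antioxidant response element bound by NRF2, in SLC3A2, and to CACGTG, the E-box bound by MYC, in SLC7A5.
SLC3A2, chr11:62881449-62881698, plus strand: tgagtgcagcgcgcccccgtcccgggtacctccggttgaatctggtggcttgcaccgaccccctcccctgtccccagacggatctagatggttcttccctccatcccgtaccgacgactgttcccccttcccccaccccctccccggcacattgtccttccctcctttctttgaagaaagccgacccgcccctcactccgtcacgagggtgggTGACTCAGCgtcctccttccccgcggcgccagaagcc
SLC7A5, chr16:87869508-87869757, minus strand: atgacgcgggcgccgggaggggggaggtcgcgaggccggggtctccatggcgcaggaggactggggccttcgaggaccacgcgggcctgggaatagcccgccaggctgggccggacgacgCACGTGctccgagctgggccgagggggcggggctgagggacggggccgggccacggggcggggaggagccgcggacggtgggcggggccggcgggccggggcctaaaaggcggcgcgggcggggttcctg

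The core of the C/EBP-ATF response element, TGATGNAA, was searched on both strands in the same windows. It was found in 6 of the 18 carrier windows, belonging to 6 of the 9 genes, and in 3.62% of all 35116 windows of this length. That share is per window, and no share per gene was computed. The matches are shown in 30 bases each, in capitals, on the gene's strand, so that a match on the other strand is shown as its reverse complement, as in SLC3A2 and SLC1A4.
SLC3A2, chr11:62881719-62881748, plus strand: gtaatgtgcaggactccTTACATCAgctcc
SLC7A1, chr13:29595663-29595692, minus strand: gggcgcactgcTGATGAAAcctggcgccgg
SLC38A1, chr12:46266502-46266531, minus strand: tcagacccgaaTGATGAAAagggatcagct
SLC1A3, chr5:36596357-36596386, plus strand: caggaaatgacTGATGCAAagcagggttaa
SLC1A4, chr2:64989381-64989410, plus strand: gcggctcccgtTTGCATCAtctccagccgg
SLC1A5, chr19:46784893-46784922, minus strand: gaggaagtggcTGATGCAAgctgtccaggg
Relative to the start of its own window, the match began at 38 in SLC3A2 and 8 in SLC7A1, and upstream at -4, -220, -7 and -97 in SLC38A1, SLC1A3, SLC1A4 and SLC1A5. Several genes have more than 1 listed start. For SLC3A2, SLC38A1, SLC1A4 and SLC1A5 the start used here lies inside the gene's span, not at its 5′ end. TGACNNNGC was found in 5 of the 18 windows (13.3% of all windows) and CACGTG in 3 of 18 (7.26% of all windows). The 3 motifs differ in sequence, and no match of one overlapped a match of another in these windows. A match of letters is a description of the sequence and not a binding site.

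No carrier gene differed from scramble past the threshold when the 9 arrays labelled ARF1 siRNA were taken as 1 group. By limma's adjusted p, 0 of the 9 kept genes were called, against 12.5% of all 12048 genes, and 4 of the 9, SLC7A11 near background among them, were below 0.05 before adjustment. The median difference of the 9 genes, SLC7A11 included, was 0.00, as was that of all genes. The RNA came from whole cultures, in which fewer cells with a transcript and less of it per cell cannot be told apart. This comparison counts the spread between the 3 sets as error, and other settings called between 0 and 3 of the 9 genes. Set by set, the picture was of carriers that fell and carriers that rose in different sets. In ARF-1, 2 of 9 genes fell and 0 rose (22.2%, beside 30.6% of all genes called and 15.3% called lower). In ARF-2, 3 of 9 fell and 0 rose (33.3%, beside 28.9% called and 14.1% called lower). In ARF-4, 0 fell and 2 of 9 rose (22.2%, beside 9.79% called and 4.99% called higher). The share called in ARF-2 was near its background and that in ARF-1 below it. All 3 comparisons share the same scramble arrays.

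The sets were compared with each other directly. These comparisons leave out the scramble means, but the shared estimate of spread includes the scramble arrays. Between ARF-4 and ARF-1, 4 of the 9 genes were called, 3 higher (SLC7A5, SLC3A2 and SLC1A3) and 1 lower (SLC38A2) in ARF-4 (44.4%, beside 23.9% of all genes), and between ARF-4 and ARF-2, 4 were called, all higher in ARF-4 (44.4%, beside 23.4% called and 11.2% called higher): SLC7A5, SLC3A2, SLC1A3 and SLC1A5. Between ARF-2 and ARF-1 none was called, against 0.0747% of all genes, and 3 were below 0.05 before adjustment. The F-test over the 3 sets called 5 of 9 genes (55.6%), beside 24.1% of all genes: SLC7A5, SLC3A2, SLC38A2, SLC1A3 and SLC1A5. Under median scaling in place of quantile normalization the F-test called only 1 of the 9, SLC3A2.

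**Figure D1:**
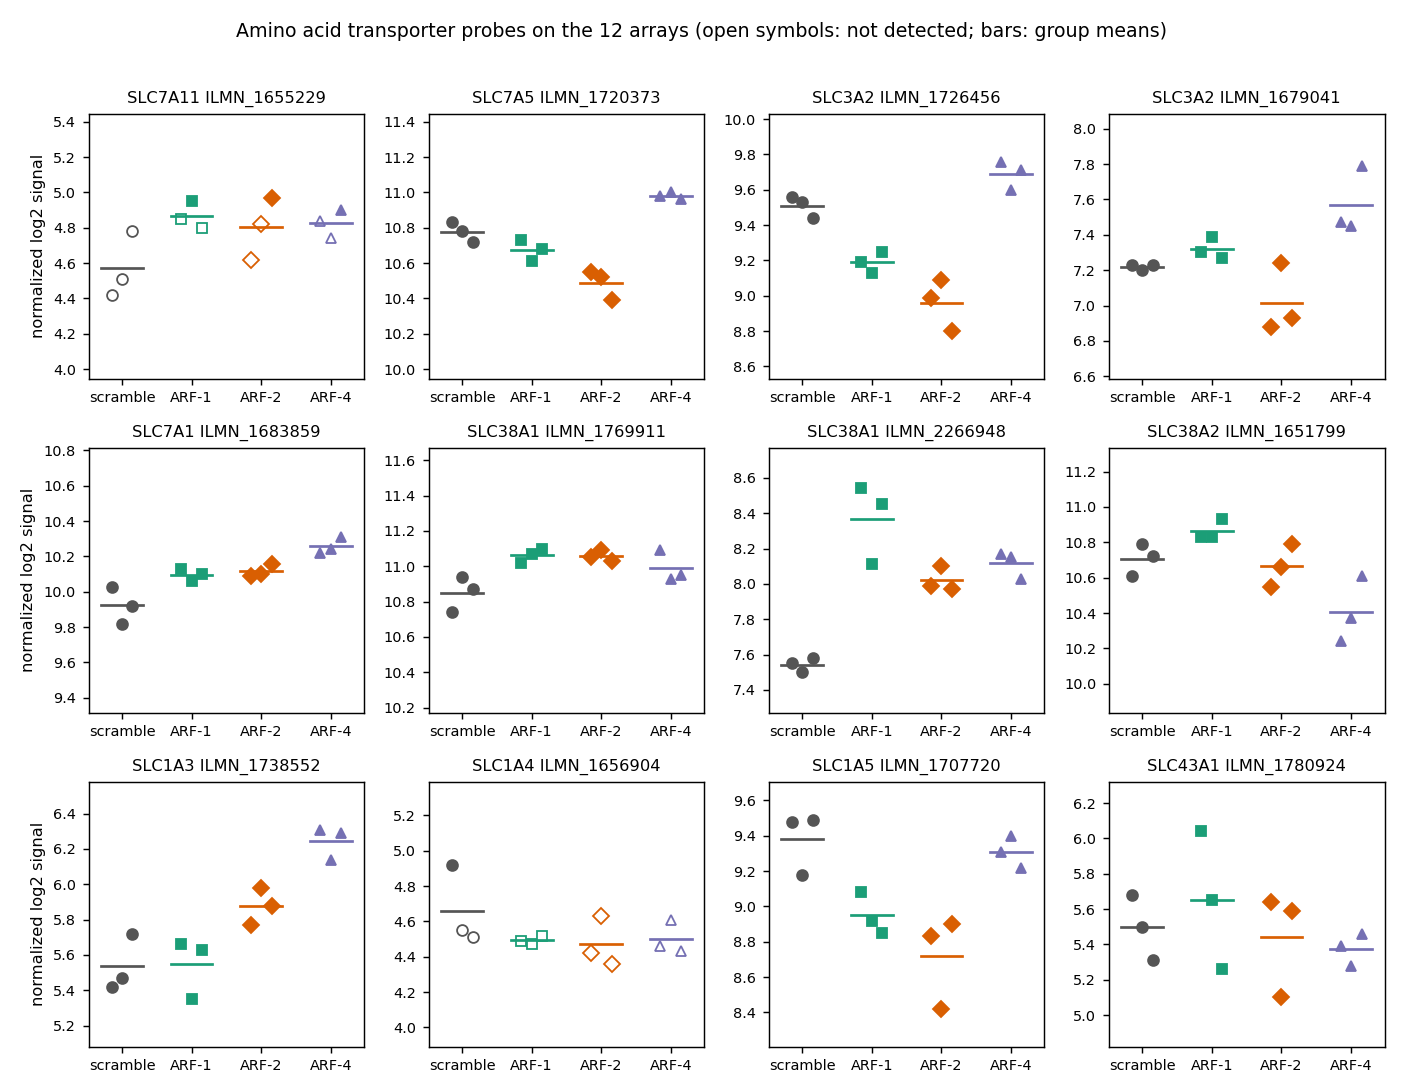
Normalized log2 signal (vertical axis, a separate range of equal width for the probes of each panel) of the 12 carrier probes on each of the 12 arrays, grouped as scramble, ARF-1, ARF-2 and ARF-4; points are arrays, bars are group means and open points are arrays on which the probe was not detected. SLC3A2 probe ILMN_1726456 and SLC1A5 lie lowest in ARF-2, SLC1A3 lies highest in ARF-4, and SLC7A11 and SLC1A4 are near the detection limit.

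The heavy chain SLC3A2 showed the clearest pattern. Its brightest probe, ILMN_1726456, read 9.56, 9.53 and 9.44 on the scramble arrays, 9.19, 9.13 and 9.25 in ARF-1, 8.99, 9.09 and 8.80 for ARF-2, and 9.76, 9.60 and 9.71 in ARF-4. Every ARF-1 and ARF-2 array lay below every scramble array, and every ARF-4 array lay above every scramble array. The transcript fell in ARF-2 by 0.55 ± 0.10 (SE; adjusted p = 0.0014, n = 3 and 3), a call that held under all 25 other settings. Its fall in ARF-1 was 0.32 ± 0.10 (adjusted p = 0.0272), but this call was lost under median scaling (adjusted p = 0.159) and without scramble replicate 1 or 2 or ARF-1 replicate 1 or 2 (adjusted p = 0.0858, 0.0747, 0.0671 and 0.0889). In ARF-4 the difference was 0.18 (adjusted p = 0.294). ARF-4 exceeded ARF-1 by 0.50 (adjusted p = 0.00321, or 0.11 under median scaling) and ARF-2 by 0.73 (adjusted p = 0.000316), and the F-test among the sets gave an adjusted p of 0.000646. In order of level the groups stood ARF-4, scramble, ARF-1, ARF-2. The arrays of neighbouring groups did not overlap, but the steps from ARF-4 to scramble and from ARF-1 to ARF-2 did not pass the adjusted threshold. Over the 9 arrays the difference was -0.23 (adjusted p = 0.446), and without the ARF-4 arrays it was -0.44 (adjusted p = 0.00832).

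The second SLC3A2 probe, ILMN_1679041, gave only part of this pattern. It read 7.23, 7.20 and 7.23 in scramble, 7.30, 7.39 and 7.27 in ARF-1, 6.88, 7.24 and 6.93 for ARF-2, and 7.47, 7.45 and 7.79 in ARF-4. ARF-4 was again highest, with no overlap with any other group, but ARF-1 lay above scramble and ARF-2 overlapped it. ARF-4 exceeded ARF-2 by 0.55 (adjusted p = 0.00633, or 0.0524 under median scaling; 0.35 without background correction), and the F-test passed (adjusted p = 0.0154, but 0.0554 without ARF-2 replicate 1, 0.0528 without ARF-2 replicate 3 and 0.123 under median scaling). No set differed from scramble past the threshold on this probe: the differences were 0.10, -0.21 and 0.35 (adjusted p = 0.601, 0.238 and 0.0949). The probes therefore disagree on ARF-1 against scramble, and with the mean of both probes that difference was -0.11 (adjusted p = 0.371).

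SLC7A5, the light chain that carries leucine, moved on a smaller scale. It read 10.83, 10.78 and 10.72 in scramble, 10.73, 10.61 and 10.68 in ARF-1, 10.55, 10.52 and 10.39 for ARF-2, and 10.98, 11 and 10.96 in ARF-4. All ARF-2 arrays lay below all scramble arrays and all ARF-4 arrays above them, while ARF-1 overlapped scramble. SLC7A5 fell in ARF-2 by 0.29 ± 0.08 (SE; adjusted p = 0.024), a call lost without scramble replicate 1 or 2 or ARF-2 replicate 3 (adjusted p = 0.0837, 0.0632 and 0.0848) and under median scaling (-0.46, adjusted p = 0.123). The differences of ARF-1 and ARF-4 from scramble were -0.11 and 0.20 (adjusted p = 0.402 and 0.17). ARF-4 exceeded ARF-2 by 0.49 ± 0.08 (adjusted p = 0.0016; 0.0757 under median scaling). ARF-4 exceeded ARF-1 by 0.31 (adjusted p = 0.0221), which rose to between 0.0505 and 0.079 when ARF-4 replicate 1 or 2 or ARF-1 replicate 2 or 3 was left out and to 0.44 under median scaling. The F-test gave an adjusted p of 0.00375 (0.172 under median scaling). The order of the 4 groups was that of the brightest SLC3A2 probe, and scramble did not differ past the threshold from either neighbour.

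SLC7A11, the cystine carrier, was at the limit of detection. It read 4.42, 4.51 and 4.78 in scramble, 4.85, 4.95 and 4.80 in ARF-1, 4.62, 4.82 and 4.97 for ARF-2, and 4.84, 4.74 and 4.90 in ARF-4. The probe was detected on 1 array of each ARF set and on no scramble array, so it was not well above background in scramble and no fold is given. The ARF-1 arrays lay above all scramble arrays, and the other sets overlapped scramble. These values are close to background in every group, so no difference or test is given.

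SLC7A1, the arginine and lysine carrier, was the 1 gene of the 9 whose scramble arrays all lay below all 9 ARF1 siRNA arrays, a separation in that direction that 7.6% of all genes showed (14.8% in either direction). It read 10.03, 9.82 and 9.92 in scramble, 10.13, 10.06 and 10.10 in ARF-1, 10.09, 10.10 and 10.16 for ARF-2, and 10.22, 10.24 and 10.31 in ARF-4. The gap was narrow for ARF-1 and ARF-2 and wider for ARF-4, whose arrays were all above those of the other sets. On the 9 arrays together the difference was 0.23 ± 0.09 (SE; adjusted p = 0.11). It rose in ARF-4 by 0.33 ± 0.09 (adjusted p = 0.033). That call was lost without scramble replicate 2 or 3 (adjusted p = 0.122 and 0.0861), without any of the 3 ARF-4 arrays (0.0647 to 0.0931) and under median scaling (0.737). In ARF-1 and ARF-2 the differences were 0.17 and 0.19 (adjusted p = 0.168 and 0.132).

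SLC1A5, the glutamine exchanger, was lower in the same sets as the brightest SLC3A2 probe, though not as the second SLC3A2 probe. It read 9.48, 9.18 and 9.49 in scramble, 9.08, 8.92 and 8.85 in ARF-1, 8.83, 8.42 and 8.90 for ARF-2, and 9.31, 9.40 and 9.22 in ARF-4. All ARF-1 and ARF-2 arrays lay below all scramble arrays, and ARF-4 lay within the scramble range. SLC1A5 fell in ARF-2 by 0.67 ± 0.14 (SE; adjusted p = 0.0037), which held under all 25 other settings, and in ARF-1 by 0.43 ± 0.14 (adjusted p = 0.0344), which did not: it was 0.107 and 0.112 without scramble replicate 1 or 3, 0.0884 and 0.106 without ARF-1 replicate 2 or 3, and 0.0588 under median scaling. In ARF-4 the difference was -0.07 (adjusted p = 0.817). ARF-4 exceeded ARF-2 by 0.60 (adjusted p = 0.00881, held under all 25 settings) and ARF-1 by 0.36 (adjusted p = 0.0833). The F-test passed (adjusted p = 0.0208), but not without ARF-4 replicate 1 or 2 (0.0638 and 0.0802) or under median scaling (0.0599). Over the 9 arrays the difference was -0.39 ± 0.17 (adjusted p = 0.155), and without the ARF-4 arrays it was -0.55 (adjusted p = 0.00992).

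The sodium-coupled glutamine carrier SLC38A1 differed between its probes. The dimmer probe, ILMN_2266948, read 7.55, 7.50 and 7.58 in scramble, 8.54, 8.11 and 8.45 in ARF-1, 7.99, 8.10 and 7.97 for ARF-2, and 8.17, 8.15 and 8.03 in ARF-4. All 9 ARF1 siRNA arrays lay above all scramble arrays. On this probe the signal rose by 0.63 ± 0.12 on the 9 arrays, 1.54-fold (adjusted p = 0.00544), and by 0.82, 0.48 and 0.58 in ARF-1, in ARF-2 and in ARF-4 (adjusted p = 0.000234, 0.00793 and 0.00781). Under median scaling the ARF-1 rise stayed past the threshold, and the others had adjusted p of 0.0758 on the 9 arrays, 0.366 in ARF-2, at a difference of 0.30, and 0.239 in ARF-4. It was the 1 of the 11 kept carrier probes called on the 9 arrays, beside 10.9% of all kept probes.

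The brighter SLC38A1 probe, ILMN_1769911, moved much less. It read 10.74, 10.94 and 10.87 in scramble, 11.02, 11.07 and 11.10 in ARF-1, 11.05, 11.09 and 11.03 for ARF-2, and 11.09, 10.93 and 10.95 in ARF-4. ARF-1 and ARF-2 lay above scramble without overlap, and ARF-4 overlapped it. The differences were 0.19 on the 9 arrays and 0.21, 0.21 and 0.14 by set, with adjusted p of 0.163, 0.0956, 0.106 and 0.361. Both probes thus lay higher in every set, and in the main fit only the dimmer passed the test. For the gene, taken by its brighter probe or the mean of both, other settings called a rise in 5 of 25 in ARF-1. They did so in 4 of 25 in ARF-2, 1 of 25 in ARF-4 and 4 of 27 on the 9 arrays. Which transcripts each probe reads was not examined here.

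SLC38A2, the related carrier that is itself known to be induced by amino acid shortage, went the other way between sets. It read 10.61, 10.79 and 10.72 in scramble, 10.83, 10.83 and 10.93 in ARF-1, 10.55, 10.66 and 10.79 for ARF-2, and 10.24, 10.37 and 10.61 in ARF-4. The ARF-1 arrays lay above all scramble arrays, ARF-2 overlapped them, and ARF-4 reached only to the lowest of them. Against scramble the differences were 0.16, -0.04 and -0.30 in ARF-1, in ARF-2 and in ARF-4, none past the threshold (ARF-1 and ARF-4 adjusted p = 0.334 and 0.117). ARF-4 was below ARF-1 by a difference of -0.46 (adjusted p = 0.0113, or 0.165 under median scaling). The F-test passed (adjusted p = 0.0285), but not without ARF-1 replicate 1, 2 or 3 or ARF-4 replicate 1 or 2 (0.0561 to 0.105) or under median scaling (0.347). It also did not pass when fitted on the 9 ARF1 siRNA arrays alone. SLC38A2 was the 1 carrier called lower in ARF-4 than in another set.

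SLC1A3, the glutamate and aspartate carrier, rose in ARF-4. It read 5.42, 5.47 and 5.72 in scramble, 5.66, 5.35 and 5.63 in ARF-1, 5.77, 5.98 and 5.88 for ARF-2, and 6.31, 6.14 and 6.29 in ARF-4. ARF-4 lay above all other arrays, ARF-2 lay between it and scramble without overlapping either, and ARF-1 overlapped scramble. The rise in ARF-4 was 0.71 ± 0.12 (SE), or 1.64-fold (adjusted p = 0.0028), and the call held under all 24 other settings, as did that of the excess of 0.70 over ARF-1 (adjusted p = 0.00133). Their size did not: without background correction they were 0.29 and 0.28 (adjusted p = 0.00338 and 0.00181), and with an offset of 50 both were 0.45. ARF-2 differed from scramble by 0.34 (adjusted p = 0.0507), which passed in 6 of 24 other settings, among them without scramble replicate 3 (0.0299) and without ARF-1 replicate 2 (0.0377). ARF-1 differed from scramble by 0.01 (adjusted p = 0.96). ARF-4 exceeded ARF-2 by 0.37 (adjusted p = 0.0427), a call lost in 16 of 24 other settings, including leaving out any ARF-2 or ARF-4 array, scramble replicate 2 or ARF-1 replicate 3 (adjusted p = 0.0501 to 0.133). The F-test gave an adjusted p of 0.00341 (0.0701 under median scaling). The signal was low, and without background correction the ARF-4 excess over ARF-2 was 0.16 (adjusted p = 0.0774).

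SLC43A1 and SLC1A4 showed no difference that these arrays could resolve. SLC43A1, the uncoupled leucine carrier, read 5.68, 5.50 and 5.31 in scramble, 6.04, 5.65 and 5.26 in ARF-1, 5.64, 5.10 and 5.59 for ARF-2, and 5.39, 5.28 and 5.46 in ARF-4. The groups overlapped throughout, and on the 9 arrays the difference was 0.00 (adjusted p = 0.99). SLC1A4, the alanine and serine exchanger, was detected on 1 of the 12 arrays, a scramble array, and was not tested. It read 4.92, 4.55 and 4.51 in scramble and between 4.36 and 4.63 on the 9 ARF1 siRNA arrays, where it was never detected, so a change in its transcript would not have been seen.

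**Figure D2:**
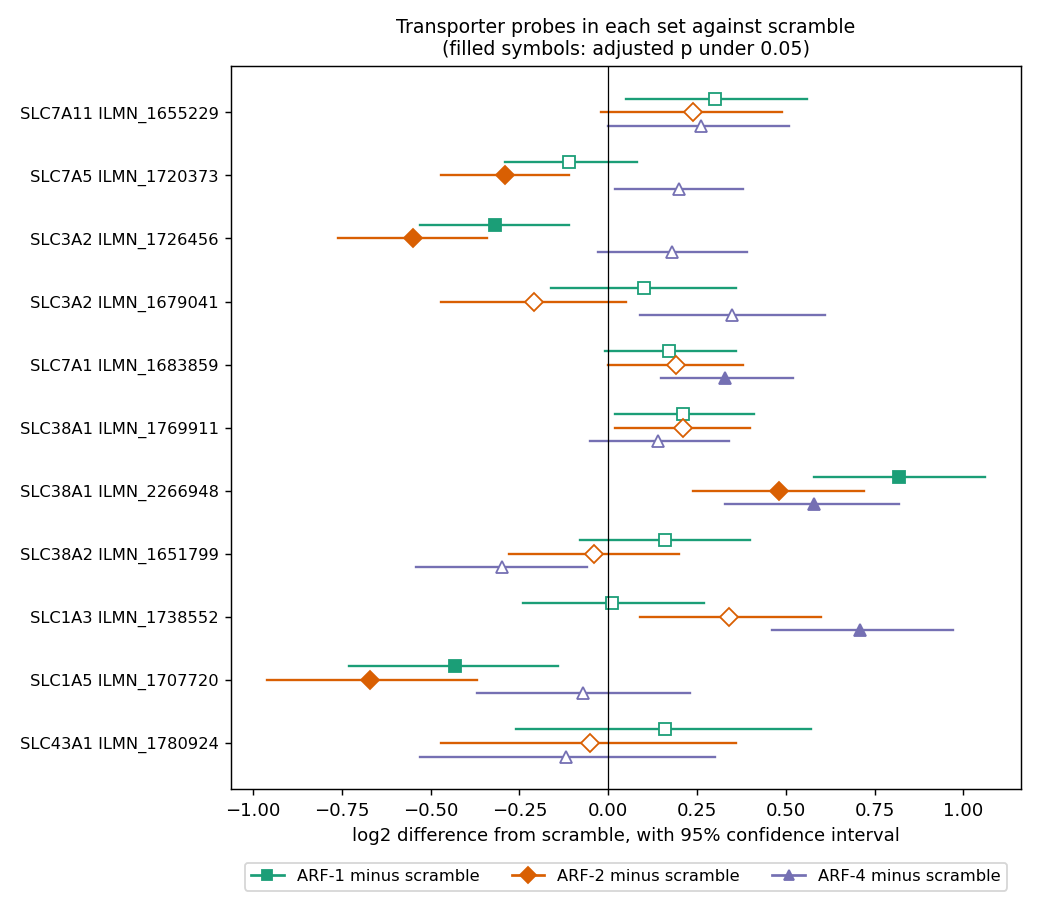
Difference from scramble in log2 units (horizontal axis) of each of the 11 kept carrier probes in ARF-1, in ARF-2 and in ARF-4, with its 95% confidence interval from limma; filled symbols have an adjusted p under 0.05. SLC3A2 ILMN_1726456 (-0.55) and SLC1A5 (-0.67) lie lowest in ARF-2, SLC1A3 lies at 0.71 in ARF-4, and SLC38A1 ILMN_2266948 lies to the right of 0 in all 3 sets. SLC7A11 was detected on no scramble array, so its points are not read as differences.

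The genes whose set differences most resembled those of SLC3A2, the carrier with the smallest p over the 4 groups, were taken by the root mean square distance over the 3 set differences from scramble, among 12048 genes. They were SNHG17 at a distance of 0.033, with differences of -0.37, -0.58 and 0.15, RECQL5 at 0.037 (-0.34, -0.51 and 0.13) and BIN3 at 0.054 (-0.40, -0.60 and 0.15). The likeness is over 3 numbers that share the scramble arrays, and nothing about function follows from it.

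The carriers were set beside the genes that ATF4 is known to induce, which include the enzymes of serine and asparagine synthesis and several tRNA synthetases. Of 34 listed genes 30 were kept, and none was among the 10 carriers. ATF4 itself was listed too, and it counts among the genes that rose on the 9 arrays. Over the 9 arrays 13 rose and 1 fell, with a median difference of 0.33, beside 12.5% of all genes called in either direction. The largest named rise was that of PHGDH, which opens serine synthesis, at 1.44 ± 0.15 (adjusted p = 6.86e-05), with 1.74, 1.42 and 1.16 in ARF-1, in ARF-2 and in ARF-4 (adjusted p = 4.68e-07, 2.37e-06 and 3.03e-05). AARS1, the alanyl-tRNA synthetase, rose by 0.67 ± 0.10 (adjusted p = 0.000881), and PSAT1, the next enzyme of serine synthesis, rose by 0.62 ± 0.13 (adjusted p = 0.00927, but 0.0665 without scramble replicate 2 and 0.0885 under median scaling). PPP1R15A, which directs the dephosphorylation of eIF2α, fell by 0.37 ± 0.08 (adjusted p = 0.0102, but 0.0552 and 0.0578 without scramble replicate 1 or 2, and 0.0578 under median scaling). The number of the 30 called on the 9 arrays was 14, and it was 4, 3 and 5 without scramble replicates 1, 2 and 3, 6 under median scaling, 9 with a replicate block and 4 with the set as a random block.

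Set by set, 19 of those 30 rose and 2 fell in ARF-1 (median 0.52), 14 rose and 2 fell in ARF-2 (median 0.26), and 8 rose and 1 fell in ARF-4 (median 0.23), beside 30.6%, 28.9% and 9.79% of all genes called. Under median scaling the numbers that rose were 12, 5 and 1. The 9 carriers had medians of 0.16, -0.04 and 0.18 in the same comparisons, and the median of all genes was 0.00 in each. SLC7A11, near background and kept only through ARF1 siRNA arrays, is among the 9. It lay above each of these carrier medians, so they can be too high. In ARF-2, where 14 of these genes rose, no carrier gene rose by its brightest probe and SLC3A2, SLC7A5 and SLC1A5 fell. The SLC7A5 call was lost in 5 of 25 other settings. The dimmer SLC38A1 probe did rise in ARF-2 (0.48, adjusted p = 0.00793, but 0.366 under median scaling). The mean of both SLC38A1 probes was also called higher there. ATF4 itself, which is regulated largely at translation, rose by 0.29 ± 0.09 (adjusted p = 0.0432). That call was lost in 13 of 27 other settings, including under median scaling (0.19, adjusted p = 0.563) and without scramble replicate 1, 2 or 3 (0.128, 0.152 and 0.135), ARF-1 replicate 1, 2 or 3 (0.0643 to 0.0712) or ARF-2 replicate 1 or 2 (0.0638 and 0.0648).

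**Figure D3:**
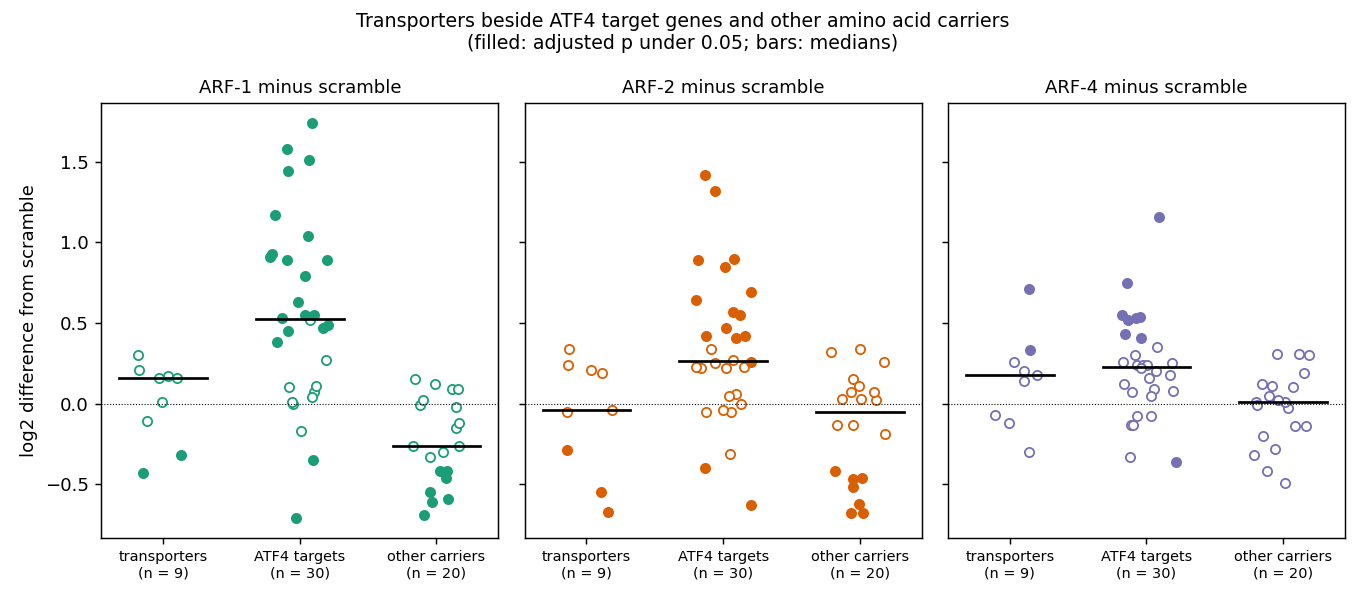
Difference from scramble in log2 units (vertical axis) of the 9 kept carrier genes, the 30 kept ATF4 target genes (ATF4 itself included) and the 20 kept other amino acid carriers in ARF-1, in ARF-2 and in ARF-4; each point is a gene by its brightest kept probe, filled points have an adjusted p under 0.05 and bars are medians. The ATF4 targets have medians of 0.52, 0.26 and 0.23, the 9 carriers 0.16, -0.04 and 0.18, and the other carriers -0.26, -0.05 and 0.01. The 9 carriers include SLC7A11, which was detected on no scramble array and lies above the carrier median in each set.

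Other amino acid carriers were counted from a list of 33 genes, of which 32 had a probe and 20 were kept. Of these, 2 fell and 0 rose on the 9 arrays (median -0.11), beside 12.5% of all genes called: SLC43A2, a leucine carrier related to SLC43A1, by 0.49 ± 0.12 (adjusted p = 0.0177), and SLC36A1, a proton-coupled carrier of small neutral amino acids in lysosomes and the plasma membrane, by 0.44 ± 0.13 (adjusted p = 0.0433). Without background correction these differences were -0.16 (adjusted p = 0.0601) and -0.23 (adjusted p = 0.0352), and under median scaling SLC43A2 had an adjusted p of 0.059. SLC43A2 was near background, with means of 5.33 in scramble and 4.73, 4.85 and 4.91 in ARF-1, in ARF-2 and in ARF-4. Neither call held without scramble replicate 1, 2 or 3 (0.0688, 0.0708 and 0.0833 for SLC43A2; 0.152, 0.112 and 0.142 for SLC36A1), and the SLC36A1 call was also lost without any ARF-1 or ARF-2 array (0.0572 to 0.0697). The count on the 9 arrays was between 0 and 8 over all other settings. In ARF-1 and in ARF-2, 7 of 20 fell and 0 rose (medians -0.26 and -0.05), beside 30.6% and 28.9% of all genes called and 15.3% and 14.1% called lower. Both counts include SLC43A3 (-0.69 and -0.68, adjusted p = 0.000321 and 0.000371), for which amino acid transport is not established. In ARF-4 none was called by limma's adjusted p (median 0.01). SLC7A2, a cationic carrier related to SLC7A1, fell in ARF-1 by 0.46 and in ARF-2 by 0.62 (adjusted p = 0.0067 and 0.00106; -0.29 and -0.39 without background correction), and SLC25A22, a mitochondrial glutamate carrier, fell by 0.42 in both (adjusted p = 0.00835 and 0.0101; 0.0504 in ARF-1 under median scaling).

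Of 15 transcription factors and cofactors listed as possible regulators of the carriers, 12 were kept. Their action on these genes was not tested. On the 9 arrays 1 rose (ATF4, already counted above) and 0 fell (median 0.11), beside 12.5% of all genes called. By set, 4 rose in ARF-1, 4 rose in ARF-2 and 1 fell in ARF-4, beside 30.6%, 28.9% and 9.79% of all genes called. MYC rose in ARF-1 by 0.36 (adjusted p = 0.0077, or 0.481 under median scaling). MXI1, a MYC antagonist, rose in ARF-1 by 0.91 and in ARF-2 by 0.54 (adjusted p = 0.000337 and 0.0101). Under median scaling the adjusted p in ARF-2 was 0.0623, and without background correction the differences were 0.31 and 0.18. The scramble mean of MXI1 was 4.63, near background, so the size of these rises is uncertain. EPAS1 (HIF-2α), a hypoxia factor, fell in ARF-4 by 0.93 (adjusted p = 0.00022). Of 14 kept genes for the eIF2α kinases and their control, 1 fell on the 9 arrays (beside 12.5% of all genes called), EIF2B3, a subunit of the exchange factor of eIF2, by 0.54 ± 0.14 (adjusted p = 0.0247, but 0.122 and 0.128 without scramble replicate 1 or 3).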

How the data were processed

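Total RNA of MDA-MB-231 cells was amplified, biotin-labelled and hybridised to 12 beadchips, per the labels' protocols. The deposited files give each probe's signal intensity on each array, not normalized, and a detection p-value; BeadStudio 2.3.47 is named in the submitters' processing notes. The authors' deposited value table, also an intensity, equals the quantile-normalized signals to within 6.06e-07 on the log2 scale and was used as an alternative. Of 47323 listed probes 12 were empty and left out. No deposited table of per-sample values went unused.

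Signals were corrected with neqc (limma 3.58.1, R 4.3.3; background from the detection p-values, offset 16), quantile normalized and put on the log2 scale. Of the 47311 probes 30108 had 1 gene symbol, 8 several and 17195 none. The 9 arrays were compared with the 3 scramble arrays by 2 condition means, and the sets by 4 group means with 1 shared variance, over all kept probes. Tests were two-sided. On simulated data of 22195 probes, the comparison of 9 with 3 recovered 19.4%, 65.7% and 92.4% of changes of 1.25-fold, 1.5-fold and 2-fold, and that of ARF-2 with scramble 5.97%, 32.8% and 80.3%. The simulation drew its noise from the spread within groups and gave all changed arrays the same shift. It held no spread between the sets, which the real comparison of 9 with 3 counts as error. Its recovery for that comparison can therefore be too high. Few simulated probes were changed, and 121 and 83 of the 22195 were called, beside 12.5% and 28.9% of all genes in the data. The Benjamini-Hochberg adjustment was thus stricter in the simulation than in the data. By this alone, recovery in both comparisons can be too low. The number of arrays limits the precision.

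The carriers and the gene lists were chosen with earlier results of these data known. Genes named from a list were the up to 4 with the smallest adjusted p on the 9 arrays against scramble. Alternatives covered background, normalization, probe filter, array weights, variance prior, blocks (statmod 1.5.0), array brightness, probe averaging, smaller fits and leaving out each array. Scan and slide batches are not given in the sources used here.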

Additional observations from a re-analysis of the deposited data

Results flagged for a closer look

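The 3 sets carry the same siRNA label, yet 5 carriers differed among them by the F-test of the difference itself, on 6 probes. The adjusted p was 0.000646 for SLC3A2 on ILMN_1726456 and 0.0154 on ILMN_1679041, 0.00375 for SLC7A5, 0.00341 for SLC1A3, 0.0208 for SLC1A5 and 0.0285 for SLC38A2. ARF-4 had the highest mean of the 3 sets for SLC3A2, SLC7A5, SLC1A3 and SLC1A5 and the lowest for SLC38A2. Among the 9 ARF1 siRNA arrays no single array stood apart by Dixon's test for any carrier probe; groups of 3 were not tested.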

How the results depend on the processing

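Of 2182 values of single carrier probes under other settings, 2062 kept their side of the threshold, 67 lost it and 53 gained it; none that was called changed sign, and 37 uncalled ones did. On the 9 arrays, where 0 carriers were called, 2 were called without background correction or with the authors' value table, 3 with array weights or 4 group means, 1 with the mean of all probes and 2 without the ARF-4 arrays. In ARF-1 the 2 calls became 0 under median scaling and 1 without the probe filter. SLC38A1 was called higher in ARF-1 without background correction, with the authors' value table, with detection on all arrays or with a trended robust variance. In those settings SLC3A2 and SLC1A5 kept their ARF-1 calls. With the mean of all probes SLC38A1 was called higher in ARF-1 and SLC3A2 was not called. In ARF-2 the 3 became 5 with the mean of all probes, 4 in 6 other settings that kept all arrays, and 2 under median scaling or with the ARF-2 and scramble arrays alone. In ARF-4 the 2 became 1 under median scaling, with detection on all arrays, or with the ARF-4 and scramble arrays alone, and 3 with the mean of all probes, no background correction, the authors' value table or a trended robust variance. The F-test's 5 became 1 under median scaling, which moved the median of all kept probes by between -0.045 and -0.091. The cause was not tested. Leaving out single arrays gave 0 to 0 on the 9 arrays, 0 to 2 in ARF-1, 2 to 4 in ARF-2, 1 to 2 in ARF-4 and 3 to 5 by the F-test. EIF2AK1 in ARF-1 reversed from 0.31 to -0.13 with the mean of its probes.

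The labels do not say whether a replicate number marks a shared culture or day. Deviations of arrays with the same number correlated at -0.02 to 0.04, so no shared effect was seen, but pairing cannot be judged from this. With the replicate number as a block the counts were 0, 2, 3, 2 and 5, the same as without it. SLC7A11 and SLC1A4, near background, limit what can be seen.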

Other observations

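Other genes of amino acid use were counted on the 9 arrays against scramble, where 12.5% of all genes were called. Of 24 kept genes of amino acid sensing by mTORC1, the kinase complex that promotes growth when amino acids are present, 2 rose and 2 fell on the 9 arrays (median 0.05). RRAGD, a Rag GTPase that holds mTORC1 at the lysosome, rose by 0.82 ± 0.11 (adjusted p = 0.000618) and by 0.93, 0.88 and 0.65 in ARF-1, in ARF-2 and in ARF-4 (adjusted p = 0.000104, 0.000159 and 0.00367, the last 0.132 under median scaling). Its relative RRAGC fell by 0.44 ± 0.10 (adjusted p = 0.0129, but 0.107 without scramble replicate 2). RRAGA rose by 0.36 ± 0.10 (adjusted p = 0.0348) and MTOR fell by 0.41 ± 0.12 (adjusted p = 0.0382). Neither of these calls held without scramble replicate 1, 2 or 3 (0.0815 to 0.146 for RRAGA, 0.0821 to 0.153 for MTOR). They were also lost without ARF-1 replicate 1 or 2 or ARF-2 replicate 2 for RRAGA (0.0538 to 0.0582) and without any ARF-1 or ARF-2 array for MTOR (0.0537 to 0.0609). Under median scaling RRAGA differed by 0.23 (adjusted p = 0.485).

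Of 12 kept genes of amino acid breakdown, 1 rose on the 9 arrays, SAT1, which acetylates polyamines, by 1.20 ± 0.37 (adjusted p = 0.0479). That call was lost in 14 of 27 other settings, including without any scramble, ARF-1 or ARF-2 array (0.0701 to 0.156). In ARF-1 and ARF-2, where 30.6% and 28.9% of all genes were called, SAT1 rose by 1.65 and 1.71 (adjusted p = 8.6e-07 and 8.38e-07), and BCKDHA, a subunit of the dehydrogenase of branched-chain keto acids, rose by 1.76 and 1.15 (adjusted p = 1.43e-06 and 2.99e-05), or 0.97 and 0.57 without background correction. In ARF-4 their differences were 0.23 and 0.19 (adjusted p = 0.188 and 0.349). Of 9 kept genes of glutamine and glutamate use none was called on the 9 arrays by limma's adjusted p, and CAD, which uses glutamine to start pyrimidine synthesis, fell in ARF-1 by 1.09 and in ARF-2 by 0.94 (adjusted p = 1.86e-05 and 6.27e-05) with a difference of -0.07 in ARF-4. Of 18 kept genes of glutathione and cystine use 1 rose on the 9 arrays, NQO1, by 0.40 ± 0.11 (adjusted p = 0.0296, but 0.11 and 0.167 without scramble replicate 1 or 3, and 0.331, at a difference of 0.15, with the mean of its probes). KEAP1, which holds NRF2 down, fell in ARF-1 by 1.10 and in ARF-2 by 0.85 (adjusted p = 4.32e-06 and 2.92e-05), with a difference of -0.05 in ARF-4.

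Of 9 kept identity markers of the line, EPCAM rose by 0.51 (0.33 without background correction; adjusted p = 0.014, but 0.0658 and 0.0825 without scramble replicate 1 or 3) and CAV1 fell by 0.46 (adjusted p = 0.00903, but 0.0532 and 0.0524 without scramble replicate 1 or 2) on the 9 arrays. PECAM1, an endothelial marker, rose in ARF-1 by 0.38 and in ARF-2 by 0.70, and fell by 0.89 in ARF-4 (adjusted p = 0.00475, 9.18e-05 and 5.68e-05; 0.441 and 0.0663 in ARF-1 and ARF-2 under median scaling), the last by 0.51 without background correction, while VWF, CDH5 and KDR were detected on no array.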
